A study of Arabidopsis thaliana with 12 samples.

Results

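The comparison described here set the highest dose of Rose Bengal, 400 µM, against the lowest, 10 µM, without the untreated seedlings entering the contrast. Its members were chosen by the dose in the sample labels, 3 libraries at 400 µM and 3 at 10 µM of 12 libraries in all, and all 13307 genes of the deposited count table were tested. The plants of both groups were wild-type Arabidopsis thaliana seedlings of the Col-0 accession, 2 weeks old and whole, with roots and shoots together, and carried no mutation or transgene. After at least an hour in water they were kept for 2 h in Rose Bengal under light of 30 µE. Both groups thus shared the dye, the light and the handling and differed in the dose. The other 6 libraries, 3 without dye and 3 at 100 µM, are given beside the results as levels. They were also part of the fit, where all doses shared an estimate of the spread, so they bear on the p-values. Of the 1022 genes called below, 876 were called again with the 6 compared libraries alone. The 3 libraries of a dose are numbered as in the labels. RNA was read from its 3′ ends (MARS-seq), a method that sequences a tag next to the poly(A) tail and counts it for the gene, so a level in CPM (reads of the gene per 1000000 reads of the library) needs no correction for transcript length. The methods of the study describe biological replicates that each pool several whole seedlings, in its sections on RNA and not for these libraries by name, and the sample labels do not say whether the 3 libraries of a dose came from separate cultures. The p-values therefore measure the spread between these libraries, which may be technical in part. Where the study names its source deposits, it ties this one to DCMU, an inhibitor of photosynthesis, and Rose Bengal to a neighbouring one, while the series title and the labels of all 12 samples name Rose Bengal, which was followed here.

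Rose Bengal is a photosensitizer: in the light it passes its excitation energy to oxygen and gives singlet oxygen, a reactive species that oxidizes lipids, proteins and RNA close to where it is made. In plants, singlet oxygen is otherwise formed mainly by excited chlorophyll in the chloroplast, and it is known to change the expression of nuclear genes, with BAP1 and a group of AAA-ATPase, calmodulin-like and ethylene response factor genes as common markers. Damaged proteins are also a known signal for heat shock transcription factors, which bind repeats of the heat shock element in promoters and turn on the chaperones called heat shock proteins.

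The 3 libraries at 10 µM held 2673642, 3608636 and 1499791 reads, and the 3 at 400 µM held 2046475, 2002066 and 2422583. One read was worth between 0.262 and 0.615 CPM in these 6 libraries, and 12564 to 13114 genes had at least 1 read. Genes of leaf and root were both read: RBCS1A, a small subunit of Rubisco, had a mean of 14258 CPM at 10 µM and 15358 at 400 µM, and the root hair genes of the list given below summed to 96.9 to 149.8 CPM at 10 µM. Some libraries stood apart from the others of their dose along the first component of the deviations from the dose means, which held 33.4% of that variance over 6904 genes: library 1 at 10 µM scored 0.37 against -0.15 and -0.21, library 2 at 400 µM scored 0.28 against -0.23 and -0.05, and library 1 at 100 µM scored 0.65 against -0.38 and -0.27. ACT2, an actin gene in common use as a reference, followed the same libraries with 306, 151 and 126 CPM at 10 µM and 23.5, 103 and 30.5 CPM at 400 µM. Results that rest on these libraries are given with and without them.

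Of the 13307 genes, 1022 differed between 400 and 10 µM at an adjusted p under 0.05 (quasi-likelihood test in edgeR, Benjamini-Hochberg adjusted), which is 7.68% of those tested. There were 621 genes higher at 400 µM (4.67%) and 401 lower (3.01%), and the difference reached 2-fold in 297 of the higher genes (2.23%) and 263 of the lower ones (1.98%). The 3 values at 400 µM all lay above the 3 at 10 µM in 13.9% of genes and all below in 13.4%, so a gap between the groups was common and is read beside the test. The split between higher and lower genes depended on the scaling: with TMM factors (trimmed mean of M values, a scaling on the genes that change least) 60.8% of the called genes were higher, and with library totals alone 433 were higher and 733 lower, or 37.1% higher. Between these 2 scalings the median log2 fold change of all genes moved from -0.04 to -0.20, and the gene lists below, which hold chosen members and not whole families, are read against the first of these values. Counts of called members are read beside the 4.67% of all genes that were higher and the 3.01% that were lower. A single call in a list is not read as a result about the list. In all, 430 genes passed the threshold under each of the 13 other settings tried, 327 of them higher and 103 lower.

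**Figure D1:**
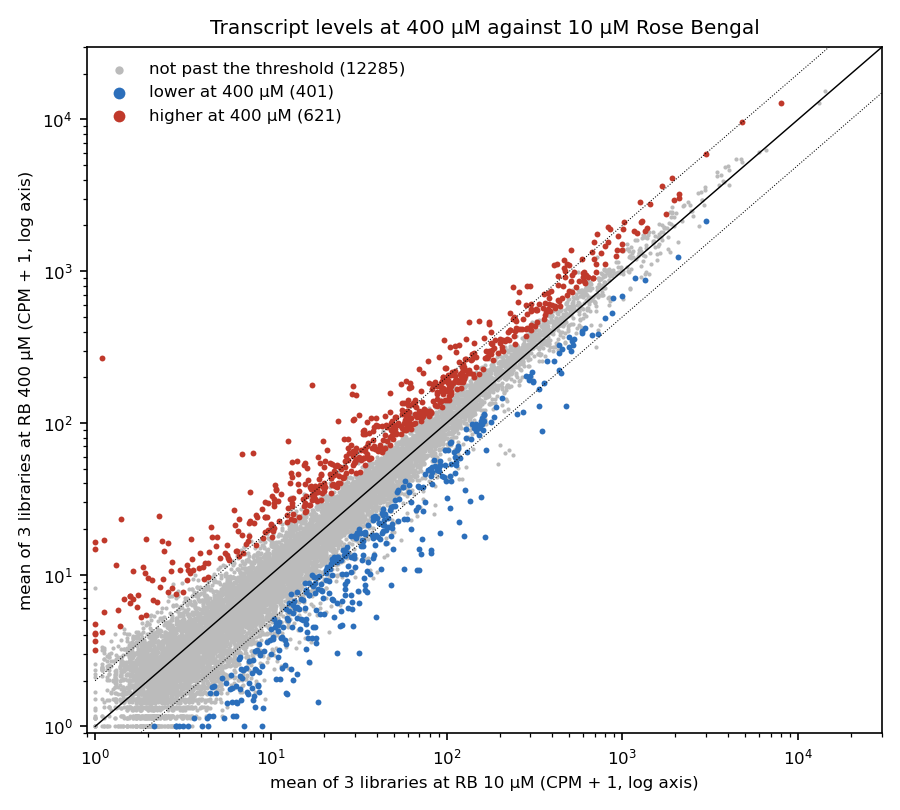
Mean level of each of the 13307 genes at 400 µM Rose Bengal (y axis) against 10 µM (x axis), both as CPM + 1 on log axes and as means of 3 libraries. Red points mark the 621 genes called higher, blue points the 401 called lower and grey points the rest, with the solid line at equal levels and the dotted lines at a 2-fold difference; the called genes reach over the whole range of levels.

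Leaving out library 1 at 10 µM cost more of the lower genes their call than of the higher ones. The level in this library was at least 2 times as high as both other libraries at 10 µM in 82 of the 401 lower genes and in 17 of the 621 higher ones. A high value at 10 µM lowers the ratio by itself, so these 2 counts differ in part by construction. Without library 1 at 10 µM, 455 of the 621 higher genes still passed the threshold and their median log2 fold change stayed at 0.97. This library was not the only one that mattered: 233 genes were lower without it, 180 without library 3 at 400 µM and 184 without library 1 at 400 µM. Of the lower genes, 398 were still tested, 201 of these still passed, and their median moved from -1.29 to -1.10. Without library 1 at 10 µM, library 1 at 100 µM and library 2 at 400 µM together, 600 genes were higher and 386 lower, and 744 of the 1022 genes were called again, all in the same direction.

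**Figure D2:**
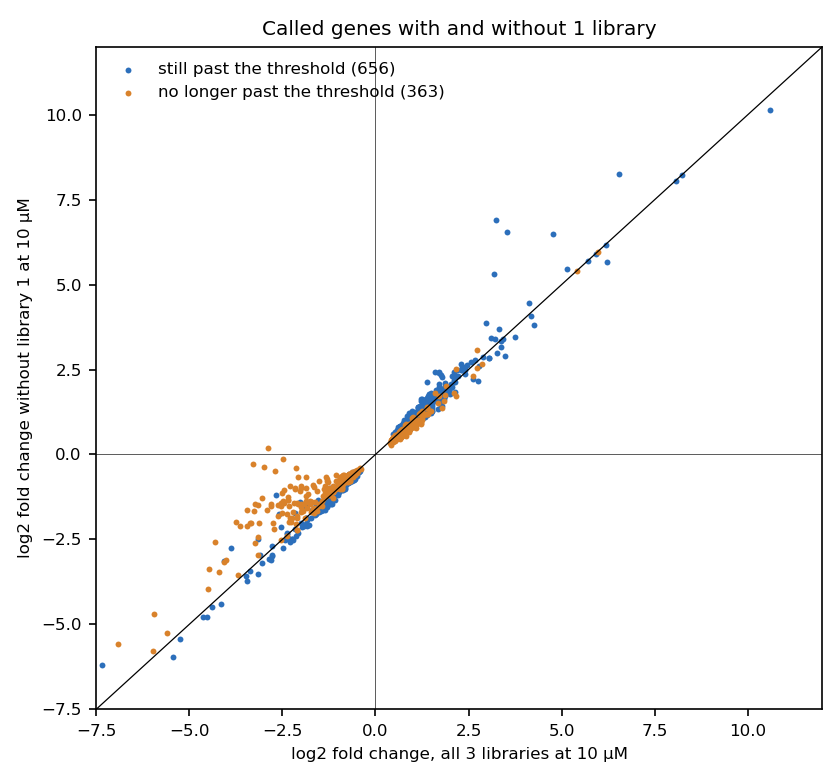
Log2 fold change of the called genes with all 3 libraries at 10 µM (x axis) and without library 1 at 10 µM (y axis). Blue points are the 656 genes that still passed the threshold and orange points the 363 that did not; the higher genes lie along the line of equal values, while many of the lower genes move towards 0.

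The 4 genes that the study used as markers of singlet oxygen were all higher at 400 µM than at 10 µM. BAP1, which encodes a membrane-associated protein known to restrain cell death, had 149, 118 and 113 CPM at 10 µM and 265, 258 and 265 CPM at 400 µM. The 2 groups did not overlap, and BAP1 rose 2.07-fold (log2 fold change 1.05 ± 0.16 (SE), adjusted p = 0.00028). AT5G64870, a member of the flotillin family of membrane proteins, was at 16.9, 8.92 and 9.84 CPM at 10 µM and 34.5, 44.5 and 38.9 CPM at 400 µM and rose 3.28-fold (log2 fold change 1.72 ± 0.34 (SE), adjusted p = 0.0033). AT5G13200, which encodes a GRAM domain protein, lay between 29.2 and 47.4 CPM at 10 µM and between 66.5 and 72.1 CPM at 400 µM, with a log2 fold change of 0.91 ± 0.18 (SE) and adjusted p = 0.0037. AT3G01830, a calmodulin-like gene, had 5 reads over the 3 libraries at 10 µM, all in 1 of them, and 38 over the 3 at 400 µM, with a log2 fold change of 3.24 ± 0.80 (SE) and adjusted p = 0.019. It lost the call, with adjusted p between 0.059 and 0.068, when library 2 at 10 µM, library 1 at 400 µM or library 2 at 400 µM was left out, and genes on the other strand overlap it. The 4 genes were chosen by the study as known responders.

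Of the study's 4 markers of superoxide 3 were among the genes tested, and FER4 was not analysed here. None of the 3 passed the test in edgeR or in DESeq2, and none had an unadjusted p under 0.05. FER1, an iron storage protein of the chloroplast, was at 501, 403 and 483 CPM at 10 µM and 427, 492 and 428 CPM at 400 µM, with overlapping groups (log2 fold change -0.04 ± 0.14 (SE), adjusted p = 0.9). AT4G21870, an HSP20-like gene, had means of 5.76 CPM at 10 µM and 3.54 at 400 µM (adjusted p = 0.45), and MYBL2, a repressor of anthocyanin synthesis, 1.64 and 2.42 CPM (adjusted p = 0.74). The list is small, and 2 of these genes were at a few CPM. In the list of BAP, BONZAI and flotillin membrane genes, 5 of 7 measured members were higher and none lower. This count takes in singlet oxygen markers given above, BAP1 and AT5G64870 among them, so it is not separate from their result. Of the other members, FLOT1 had means of 188 and 349 CPM, and BAP2, the close relative of BAP1, 8.22 and 29.1 CPM.

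Most heat shock genes did not pass the test between 10 and 400 µM, and the small heat shock proteins as a sum were far above their untreated level at both doses. The 10 measured cytosolic small heat shock proteins, chaperones that hold unfolded proteins, summed to 8524, 4933 and 6074 CPM at 10 µM and to 7851, 7446 and 7664 CPM at 400 µM, with 394 to 419.8 CPM in the 3 untreated libraries and 9481 to 11315 CPM at 100 µM. The groups overlapped, since library 1 at 10 µM was above all 3 libraries at 400 µM. Of the 10 genes, 2 were higher at 400 µM, 2 were lower and 6 did not pass the test, with a median log2 fold change of 0.32 against -0.04 for all genes. Without the 3 libraries that stood apart, 5 of the 10 were higher and 2 lower. Near-identical members of this family can share reads, so the split between single genes is less certain than their sum.

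HSP18.2 moved most of the cytosolic family: it had 40.1, 31 and 17.2 CPM at 10 µM and 143, 169 and 144 CPM at 400 µM, a 5.01-fold rise (log2 fold change 2.33 ± 0.25 (SE), adjusted p = 1.4e-05), and 4.44, 11.1 and 8.68 CPM without dye. AT1G53540, another class I small heat shock protein, went from 679, 395 and 471 CPM to 973, 927 and 924 CPM (log2 fold change 0.87 ± 0.16 (SE), adjusted p = 0.0023). In the other direction, AT1G59860, also an HSP20-like chaperone, fell from 541, 362 and 407 CPM to 234, 218 and 212 CPM (log2 fold change -0.98 ± 0.17 (SE), adjusted p = 0.00095), while its untreated libraries held 11.3 to 20.6 CPM. All 3 of these genes kept their calls under every other setting. AT2G19310, the remaining lower one, had 184, 28.3 and 29.5 CPM at 10 µM and 12.5, 15.7 and 10.2 CPM at 400 µM. Its log2 fold change of -2.67 shrank to -1.19 without library 1 at 10 µM (adjusted p = 0.024).

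Among the 6 small heat shock proteins of organelles, ATHSP22.0 of the endoplasmic reticulum was higher, with means of 32.6 CPM at 10 µM and 88.1 at 400 µM (adjusted p = 0.02), and the call was lost without library 3 at 10 µM (adjusted p = 0.074), without library 2 at 400 µM (0.11) and in DESeq2 (0.16). AT5G51440, an HSP20-like gene, was lower at 400 µM, with 367, 229 and 335 CPM at 10 µM and 202, 185 and 176 CPM at 400 µM (log2 fold change -0.72 ± 0.16 (SE), adjusted p = 0.0081), and its call was lost without library 3 at 400 µM (adjusted p = 0.051) and without the 3 libraries that stood apart (0.053). The 16 chaperones of the HSP100, HSP90 and HSP70 classes summed to a mean of 7195 CPM without dye, 12919 CPM at 10 µM and 13367 CPM at 400 µM. Of these, 2 were higher at 400 than at 10 µM: HSP70b, with 128, 90 and 78.1 CPM at 10 µM and 244, 255 and 186 CPM at 400 µM (log2 fold change 1.20 ± 0.20 (SE), adjusted p = 0.00067), and HSP101, the disaggregase that pulls proteins out of aggregates, with 784, 444 and 616 CPM at 10 µM and 984, 907 and 925 CPM at 400 µM (log2 fold change 0.61 ± 0.15 (SE), adjusted p = 0.018). HSP101 lost its call with library totals and without library 1 or 3 at 400 µM, with adjusted p between 0.053 and 0.074, and its level at 100 µM was 1297 to 1371 CPM, above all 3 libraries at 400 µM. The HSP90 genes and the other HSP70 genes did not pass the test, and none of the 8 measured co-chaperones did in edgeR or DESeq2, although 2 had an unadjusted p under 0.05: J2, a DnaJ protein, had means of 351 and 452 CPM (adjusted p = 0.084).

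Of 15 measured heat shock transcription factors, 1 was higher. Their summed level was 718, 540.1 and 597 CPM at 10 µM and 1078, 1014 and 1028 CPM at 400 µM, with no overlap, and 295, 308 and 328 CPM without dye. HSFB1, a class B factor that represses transcription, had 462, 360.4 and 349 CPM at 10 µM and 755, 734 and 717 CPM at 400 µM, a 1.88-fold rise (log2 fold change 0.91 ± 0.13 (SE), adjusted p = 0.00019). HSFA2, an activator that prolongs the heat response, had 104, 44.3 and 79.4 CPM at 10 µM and 116, 113 and 123 at 400 µM. Those groups did not overlap, but the difference did not pass the test (log2 fold change 0.64 ± 0.22, adjusted p = 0.086). Without library 1 at 10 µM, its highest library at 10 µM, HSFA2 was called higher (log2 fold change 0.94, adjusted p = 0.0094), and likewise without the 3 libraries that stood apart (1.00, adjusted p = 0.004). HSFA2 held 1.9 to 3.23 CPM without dye.

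Because heat shock factors bind a known promoter element, the 250 bases before each annotated gene start were read from RefSeq's TAIR10.1 assembly. These windows were searched for GAANNTTC and TTCNNGAA, the shortest inverted repeats of the heat shock element (each reads the same on both strands, and overlapping matches were both counted). Of 13213 such windows of tested nuclear genes, 15.8% held a match, against 21.5% of 610 promoters of the higher genes and 16.5% of 401 of the lower ones. A match was present for 3 of 10 cytosolic and 4 of 6 organelle small heat shock proteins, for 3 of 8 co-chaperones and for 4 of 15 heat shock factors, but for 1 of 16 chaperones of the HSP100, HSP90 and HSP70 classes. The windows of the 5 genes with a match among the heat shock genes named by rule are shown here 5′ to 3′ on the strand of the gene, with the matches in capitals, since genes that were higher, lower and not past the test all hold the element. AT1G53540 was higher, AT5G51440 was lower, and J2, HSFA2 and HSP21 did not pass.
AT1G53540: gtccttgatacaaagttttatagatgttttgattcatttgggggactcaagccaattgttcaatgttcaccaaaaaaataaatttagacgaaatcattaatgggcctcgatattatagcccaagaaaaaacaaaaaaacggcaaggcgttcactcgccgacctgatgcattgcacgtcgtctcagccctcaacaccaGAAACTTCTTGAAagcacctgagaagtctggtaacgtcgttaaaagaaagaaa
AT5G51440: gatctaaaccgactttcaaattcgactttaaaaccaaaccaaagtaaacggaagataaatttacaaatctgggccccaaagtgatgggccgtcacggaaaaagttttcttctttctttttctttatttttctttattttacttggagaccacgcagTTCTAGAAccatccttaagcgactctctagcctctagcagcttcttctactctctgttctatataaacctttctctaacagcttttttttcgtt
J2: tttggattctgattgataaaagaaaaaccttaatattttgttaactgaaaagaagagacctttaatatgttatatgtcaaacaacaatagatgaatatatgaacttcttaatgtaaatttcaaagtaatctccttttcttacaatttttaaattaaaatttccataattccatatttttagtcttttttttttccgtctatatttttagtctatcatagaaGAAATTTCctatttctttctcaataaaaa
HSFA2: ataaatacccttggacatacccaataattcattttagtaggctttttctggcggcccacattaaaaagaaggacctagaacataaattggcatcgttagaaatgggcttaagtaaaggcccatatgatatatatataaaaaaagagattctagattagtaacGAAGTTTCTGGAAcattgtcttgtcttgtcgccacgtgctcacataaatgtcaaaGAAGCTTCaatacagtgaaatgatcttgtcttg
HSP21: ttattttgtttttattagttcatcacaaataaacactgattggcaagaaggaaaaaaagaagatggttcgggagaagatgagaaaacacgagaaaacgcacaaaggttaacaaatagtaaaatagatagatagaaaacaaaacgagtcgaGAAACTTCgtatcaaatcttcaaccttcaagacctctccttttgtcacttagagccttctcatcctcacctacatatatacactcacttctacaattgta

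In TAIR10.1 these windows lie at chr1:19980049-19980298 (plus strand) for AT1G53540, chr5:20890913-20891162 (plus strand) for AT5G51440, chr5:7305871-7306120 (minus strand) for J2, chr2:11135374-11135623 (plus strand) for HSFA2 and chr4:13819972-13820221 (minus strand) for HSP21. AT1G53540 and HSFA2 each hold a pair of matches that share 3 bases. AT1G53540 rose, and HSFA2 did not pass the test (adjusted p = 0.086) but was called higher without the 3 libraries that stood apart (0.004). Whether the element has a part in these levels was not tested. HSP18.2, the small heat shock protein that rose most, has no match in its window.

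Among the 15 largest rises, the largest that did not rest on 1 library was AT1G09433, an RNA that RefSeq annotates as long non-coding and that lies next to HSP101. It had 2 reads over the 3 libraries at 10 µM and 136 over the 3 at 400 µM, as 0, 0 and 1.23 CPM at 10 µM and 27.7, 22.5 and 16.9 CPM at 400 µM. The ratio was 91, with a 95% counting interval (exact binomial, counting error only) from 24.7 to 759, and the fitted log2 fold change was 6.22 ± 0.63 (SE, adjusted p = 1.4e-05). It had no reads in the untreated libraries and 8.59, 7.01 and 9.07 CPM at 100 µM. AT1G09433 lies on chr1:27935393-27935621 of TAIR10.1 on the minus strand, 886 bases past the 3′ end of HSP101 on the same strand, and wholly within AT1G74300 on the opposite strand. HSP101 itself rose 1.53-fold, and AT1G74300, a hydrolase gene, had means of 4.03 and 3.16 CPM (adjusted p = 0.75). The sources do not say whether the counting used strand, and reads past the annotated end of HSP101 and reads of AT1G09433 cannot be told apart in the counts. The annotated RNA is 229 bases long and is shown because its locus identifier alone says nothing of what was counted.
AT1G09433: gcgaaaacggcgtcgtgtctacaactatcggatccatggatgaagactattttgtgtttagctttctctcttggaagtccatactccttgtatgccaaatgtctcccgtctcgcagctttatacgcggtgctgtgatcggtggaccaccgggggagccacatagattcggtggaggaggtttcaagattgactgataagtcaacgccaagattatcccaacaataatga

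Of 165 measured non-coding RNAs, 9 were higher (5.45%) and 5 lower (3.03%), near the 4.67% and 3.01% of all genes. A pair of the higher ones had no read at 10 µM, and are named here after their values were seen. AT1G04047 had 95 reads over the 3 libraries at 400 µM, at least 42.4-fold more against a floor of 3 reads over the group, and starts 247 bases past the 3′ end of ATAF1 on the same strand. ATAF1, a NAC transcription factor, went from a mean of 229 CPM to 406 CPM. AT1G04583 had 23 reads at 400 µM, at least 10.3-fold more, and the nearest measured gene before it on its strand, AT1G07470, had means of 10.7 and 7.49 CPM (adjusted p = 0.45).

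Transcription factors of the ethylene response (ERF) class bind GCC-box elements in promoters. Of the 20 listed members that were measured, 11 were higher at 400 µM and none lower, with a median log2 fold change of 0.70 against -0.04 for all genes, and leaving out any 1 library left 10 or 11 higher. RRTF1, the redox responsive transcription factor 1, had 10.2, 6.82 and 3.69 CPM at 10 µM and 62.7, 62.9 and 61.4 CPM at 400 µM, an 8.54-fold rise (log2 fold change 3.10 ± 0.27 (SE), adjusted p = 1.5e-06). ERF13 went from 34.9, 30.2 and 20.3 CPM to 175, 186 and 160.4 CPM (log2 fold change 2.58 ± 0.21 (SE), adjusted p = 7.8e-07). For both genes the 3 values at 400 µM were close to each other and far above those at 10 µM, and the untreated libraries held 2.6 to 5.07 and 3.47 to 6.65 CPM. ERF6 had 235, 241 and 259.6 CPM at 10 µM and 506, 502 and 442 CPM at 400 µM and ERF11 means of 19.3 and 55.3 CPM; both are known from stress responses and growth control, and their adjusted p were 8.2e-05 and 0.00016. The calls of these 4 genes held under every other setting. ERF73, a hypoxia-responsive member outside the list and named after its values were seen, was lower, with means of 292 CPM at 10 µM and 189.6 at 400 µM (log2 fold change -0.63 ± 0.17 (SE), adjusted p = 0.033), but lost the call with the 6 libraries alone and without library 2 at 10 µM or any library at 400 µM (adjusted p between 0.051 and 0.14).

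In the related DREB and CBF class, 3 of 8 were higher. AT1G22810 went from 0.704, 1.31 and 0.615 CPM to 7.32, 11 and 12.3 CPM (log2 fold change 3.36 ± 0.60 (SE), adjusted p = 0.0015), and ORA47, an activator of jasmonate synthesis genes, from means of 5.26 to 20.3 CPM (adjusted p = 0.0017). DREB2A, a regulator of drought and heat responses, had 90.5, 22.6 and 17.8 CPM at 10 µM and 9.93, 17.3 and 17.4 CPM at 400 µM, so that its mean rested on library 1 at 10 µM, and it did not pass the test (adjusted p = 0.085, and 0.039 or 0.036 without library 2 or 3 at 10 µM). AT1G71520, a further AP2-type factor and 1 of the 15 largest rises, had means of 6.64 and 34 CPM (log2 fold change 2.31 ± 0.28 (SE), adjusted p = 4.3e-05).

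WRKY factors, which bind W-box elements of defence genes, gave 8 higher and no lower gene among 20 (median log2 fold change 0.63). WRKY40, a repressor induced by pathogens, had 146, 171 and 138 CPM at 10 µM and 505, 422 and 480.0 CPM at 400 µM, a 3.08-fold rise (log2 fold change 1.62 ± 0.19 (SE), adjusted p = 2.3e-05). WRKY33, a regulator of camalexin synthesis, lay between 223 and 380.0 CPM at 10 µM and between 539 and 654 CPM at 400 µM (log2 fold change 1.00 ± 0.18, adjusted p = 0.0015), and WRKY55 went from a mean of 2.52 to 16.3 CPM (adjusted p = 0.001). The count of higher WRKY genes was 5 with library totals and also without library 3 at 10 µM, library 1 at 400 µM or library 3 at 400 µM. Of 10 zinc finger factors of the ZAT and AZF family, 4 were higher: ZAT12, a regulator of responses to reactive oxygen, had 417, 401 and 399.9 CPM at 10 µM and 1032, 1186 and 1083 CPM at 400 µM (log2 fold change 1.44 ± 0.20 (SE), adjusted p = 0.00013), and ZAT10 means of 792 and 1465 CPM (adjusted p = 0.00022). Of 16 NAC factors, 4 were higher, among them ATAF1 (log2 fold change 0.82, adjusted p = 0.00057) and ATAF2 (0.63, adjusted p = 0.0064). No gene of these 3 lists was lower, but with library totals 2 ZAT and AZF genes were higher and 1 was lower. Outside the lists, and named after their values were seen, WRKY9 was lower, with means of 18.5 CPM at 10 µM and 6.78 at 400 µM (log2 fold change -1.47 ± 0.31 (SE), adjusted p = 0.006). WRKY14 was lower too, with means of 6.55 CPM at 10 µM and 1.69 at 400 µM (log2 fold change -1.86 ± 0.49 (SE), adjusted p = 0.024), as was NAC1, with means of 24.9 CPM at 10 µM and 12.6 at 400 µM (log2 fold change -0.98 ± 0.20 (SE), adjusted p = 0.0043). WRKY9 and NAC1 kept their calls under every other setting, and WRKY14 lost its call with the 6 libraries alone, without library 2 or 3 at 10 µM, without library 1 or 2 at 400 µM and without the 3 libraries that stood apart (adjusted p between 0.051 and 0.096).

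The 15 largest rises were ranked over called genes that reached an average of 10 CPM in the 6 libraries and did not overlap between the doses. Beside the genes above, they held PP2-B13 and PP2-B14, neighbouring lectin genes of the phloem protein 2 family. PP2-B13 had 16.2, 17.1 and 15.4 CPM at 10 µM and 197, 144 and 187 CPM at 400 µM, a 10.8-fold rise and the smallest p of all genes (log2 fold change 3.43 ± 0.21 (SE), adjusted p = 2.1e-08), and PP2-B14 had 5.63, 5.77 and 6.15 CPM at 10 µM and 68.5, 58.1 and 56.7 CPM at 400 µM (10.4-fold). In both, the 3 libraries of each dose lay close together, and the levels were 2.6 to 5.07 and 0.404 to 1.27 CPM without dye. AT1G14550, a secreted peroxidase, went from 1.06, 1.05 and 1.85 CPM to 25.1, 25.1 and 19.5 CPM, an 18.2-fold rise (log2 fold change 4.19 ± 0.39 (SE), adjusted p = 3.3e-06). GAD4, a glutamate decarboxylase that makes the stress metabolite GABA, rose 6.39-fold from a mean of 11.5 to 74.5 CPM. LCR67, a small cysteine-rich protein of the defensin type, rose 4.56-fold and AT3G02840, an ARM repeat protein, 4.47-fold.

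First by fold among the rises stood the plastid-encoded ATCG00260, but it rests on 1 library: its values were 0, 0.262 and 0 CPM at 10 µM and 0.523, 2.1 and 794 CPM at 400 µM, and without library 3 at 400 µM it did not pass the test (adjusted p = 0.27). AT4G28460 and AT1G47130, which RefSeq describes as uncharacterized, had means of 3.54 and 5.15 CPM at 10 µM and of 19.6 and 25.7 CPM at 400 µM.

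**Figure D3:**
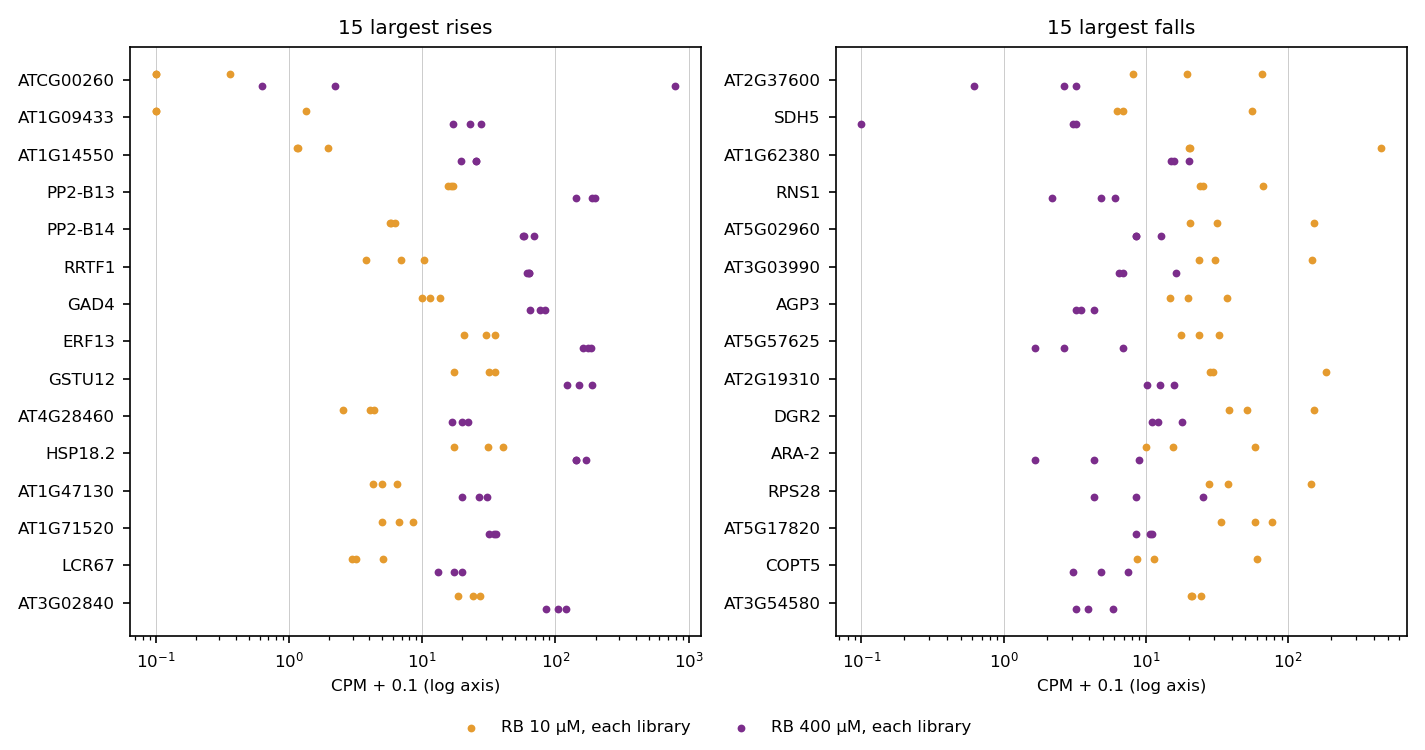
CPM + 0.1 on a log axis in each of the 3 libraries at 10 µM (orange) and at 400 µM (purple) for the 15 largest rises (left) and the 15 largest falls (right) among called genes, in order of log2 fold change. The purple points of the rises lie close together but for ATCG00260, which is high in 1 library only, and the orange points spread more in some rises, as in AT1G09433. Many of the falls have 1 orange point far to the right, library 1 at 10 µM.

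Glutathione transferases, which attach glutathione to reactive molecules, gave 5 higher and no lower gene among 22. GSTU12 had 35.2, 31.5 and 17.2 CPM at 10 µM and 189, 149 and 123 CPM at 400 µM, a 5.33-fold rise (log2 fold change 2.41 ± 0.25 (SE), adjusted p = 9.7e-06), and GSTU13 means of 215 and 348 CPM (adjusted p = 0.0013). Of 10 genes of carbonyl and xenobiotic detoxification, 2 were higher: the glycosyltransferase UGT73B5, with 132, 110.4 and 106 CPM at 10 µM and 259, 230.5 and 266 CPM at 400 µM (log2 fold change 1.12 ± 0.13 (SE), adjusted p = 3.6e-05), and the cytochrome P450 CYP81D8, with means of 25.2 and 77 CPM (adjusted p = 0.0012). UGT73B5 shares 1866 bases on the same strand with AT2G15490, a gene not among those tested, so reads of the 2 may not be told apart. Of 17 antioxidant enzymes 1 was higher, APX2, a cytosolic ascorbate peroxidase known from strong light and heat, with 0.704, 1.05 and 1.23 CPM at 10 µM and 6.27, 11 and 8.04 CPM at 400 µM (log2 fold change 3.05 ± 0.61 (SE), adjusted p = 0.0038). Of 17 genes of quencher synthesis (tocopherol, carotenoids and vitamin B6) 1 was higher, TAT3, with 32.8, 50.9 and 56.6 CPM at 10 µM and 115, 169 and 184 CPM at 400 µM (log2 fold change 1.75 ± 0.24 (SE), adjusted p = 0.00013). TAT3 encodes a tyrosine aminotransferase and is known as a gene that jasmonate induces.

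Of 12 mitochondrial stress genes, 4 were higher and none lower. DIC2, a dicarboxylate carrier of the inner membrane, had 114, 85.8 and 85.5 CPM at 10 µM and 377, 338 and 331 CPM at 400 µM, a 3.65-fold rise (log2 fold change 1.87 ± 0.14 (SE), adjusted p = 4.8e-07), and its untreated libraries held 14.5 to 16.1 CPM. AOX1D, an alternative oxidase, rose 2.53-fold from 52.1, 38.3 and 40 CPM to 93.6, 88 and 149 CPM (adjusted p = 0.00055), and AOX1A, the stress-induced gene of the same family most often studied, had means of 89.5 and 86.9 CPM (adjusted p = 0.97). DIC1 and the NAD(P)H dehydrogenase NDB2 had log2 fold changes of 1.01 and 0.98 (adjusted p = 0.0014 and 0.0039).

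Most transcripts of the mitochondrial genome were at higher levels at 400 µM, and 7 of 29 passed the test. The 29 measured genes summed to 10629.9, 8478 and 7726 CPM at 10 µM and 16035, 15798 and 12736 CPM at 400 µM, with no overlap, and to between 10756 and 14670.1 CPM in the untreated libraries. Of the 29, 28 had a positive log2 fold change and none was called lower, and the median was 0.93 against -0.04 for all genes. With library totals the median was 0.79. The most abundant of them, ATMG00020, which gives the large ribosomal RNA of mitochondria, had 9576, 7395 and 6840.4 CPM at 10 µM and 13944, 13778 and 10929 CPM at 400 µM (log2 fold change 0.70 ± 0.15 (SE), adjusted p = 0.0069). ATMG01390, the small ribosomal RNA, rose 2-fold (adjusted p = 8.5e-05). Of the 64 plastid-encoded genes, 4 were higher and none lower (median 0.28), against 4.67% higher and 3.01% lower among all genes. ATCG00260 was among the 4. The count of higher plastid genes was 1 with library totals and without library 2 at 10 µM, library 2 at 400 µM or library 3 at 400 µM, and 2 without library 1 at 400 µM. A method that captures poly(A) tails reads organelle RNA, most of which has no stable tail, only in part, so these are levels of what was captured.

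Genes of jasmonate synthesis, which turns a fatty acid of chloroplast membranes into a wound hormone, gave 7 higher and no lower gene among 14 (median log2 fold change 0.50). The lipoxygenases LOX4 and LOX3 rose 3.68-fold and 3.33-fold: LOX4 had 36.6, 23.1 and 25.8 CPM at 10 µM and 88.3, 130.4 and 96.9 CPM at 400 µM (log2 fold change 1.88 ± 0.21 (SE), adjusted p = 1.5e-05), and LOX3 means of 17.5 and 58.7 CPM (adjusted p = 3.1e-05). AOC3, an allene oxide cyclase, went from 88.8, 53.2 and 64 CPM to 214, 247 and 221 CPM (log2 fold change 1.73 ± 0.17 (SE), adjusted p = 5.9e-06), and OPR3, the reductase of the later peroxisomal steps, from a mean of 100.3 to 181 CPM (adjusted p = 0.00035). Among 10 JAZ repressors, JAZ5 was higher, with 35.9, 37.2 and 25.8 CPM at 10 µM and 84.7, 88 and 93.5 CPM at 400 µM (log2 fold change 1.40 ± 0.21 (SE), adjusted p = 0.00024). The summed level of the 14 synthesis genes was 2441, 2308 and 2308 CPM at 10 µM, below the 2680.3, 2458 and 2905 CPM of the untreated libraries, and 3008, 3212 and 3107 CPM at 400 µM.

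For tryptophan, camalexin and indole glucosinolate synthesis, 6 of 16 genes were higher and none lower, and 3 were higher without library 2 at 400 µM or library 3 at 400 µM. PAD3, the last enzyme of camalexin synthesis, had 64.1, 86.8 and 67.1 CPM at 10 µM and 157, 203 and 273 CPM at 400 µM (log2 fold change 1.53 ± 0.21 (SE), adjusted p = 0.00013), and the tryptophan synthase TSB1 had 957, 1089 and 992 CPM at 10 µM and 2011, 1680.4 and 1966 CPM at 400 µM (log2 fold change 0.90 ± 0.13 (SE), adjusted p = 0.00016). Of 12 genes of salicylate and immunity, 3 were higher (5 without library 2 at 10 µM): RBOHD, the NADPH oxidase of the plasma membrane that makes extracellular superoxide, had 211, 355 and 194 CPM at 10 µM and 648, 577 and 645 CPM at 400 µM (log2 fold change 1.29 ± 0.20 (SE), adjusted p = 0.00048), and EDS5, a salicylate transporter, rose 1.91-fold (adjusted p = 0.0025). Among calmodulin-like calcium sensors, 3 of 9 were higher, the marker AT3G01830 given above among them. The median log2 fold change was 0.03, and 4 of the 9 had a negative one. With library totals the median was -0.13, with 3 higher and 1 lower. CML12, also called TCH3 and known as a touch gene, had 3282, 2467 and 3271 CPM at 10 µM and 6070.5, 5596 and 6074 CPM at 400 µM (log2 fold change 0.98 ± 0.14 (SE), adjusted p = 0.00015), and CML37 158, 82.4 and 94.1 CPM at 10 µM and 268, 311 and 304 CPM at 400 µM (log2 fold change 1.40 ± 0.23 (SE), adjusted p = 0.00066). Of 11 MAP kinase cascade genes, 3 passed the test with rises of less than 2-fold, of which MKK9 had a log2 fold change of 0.55 (adjusted p = 0.012, and 0.054 without library 3 at 10 µM). With library totals and without library 3 at 10 µM, library 1 at 400 µM or library 3 at 400 µM, 1 of them passed.

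**Figure D4:**
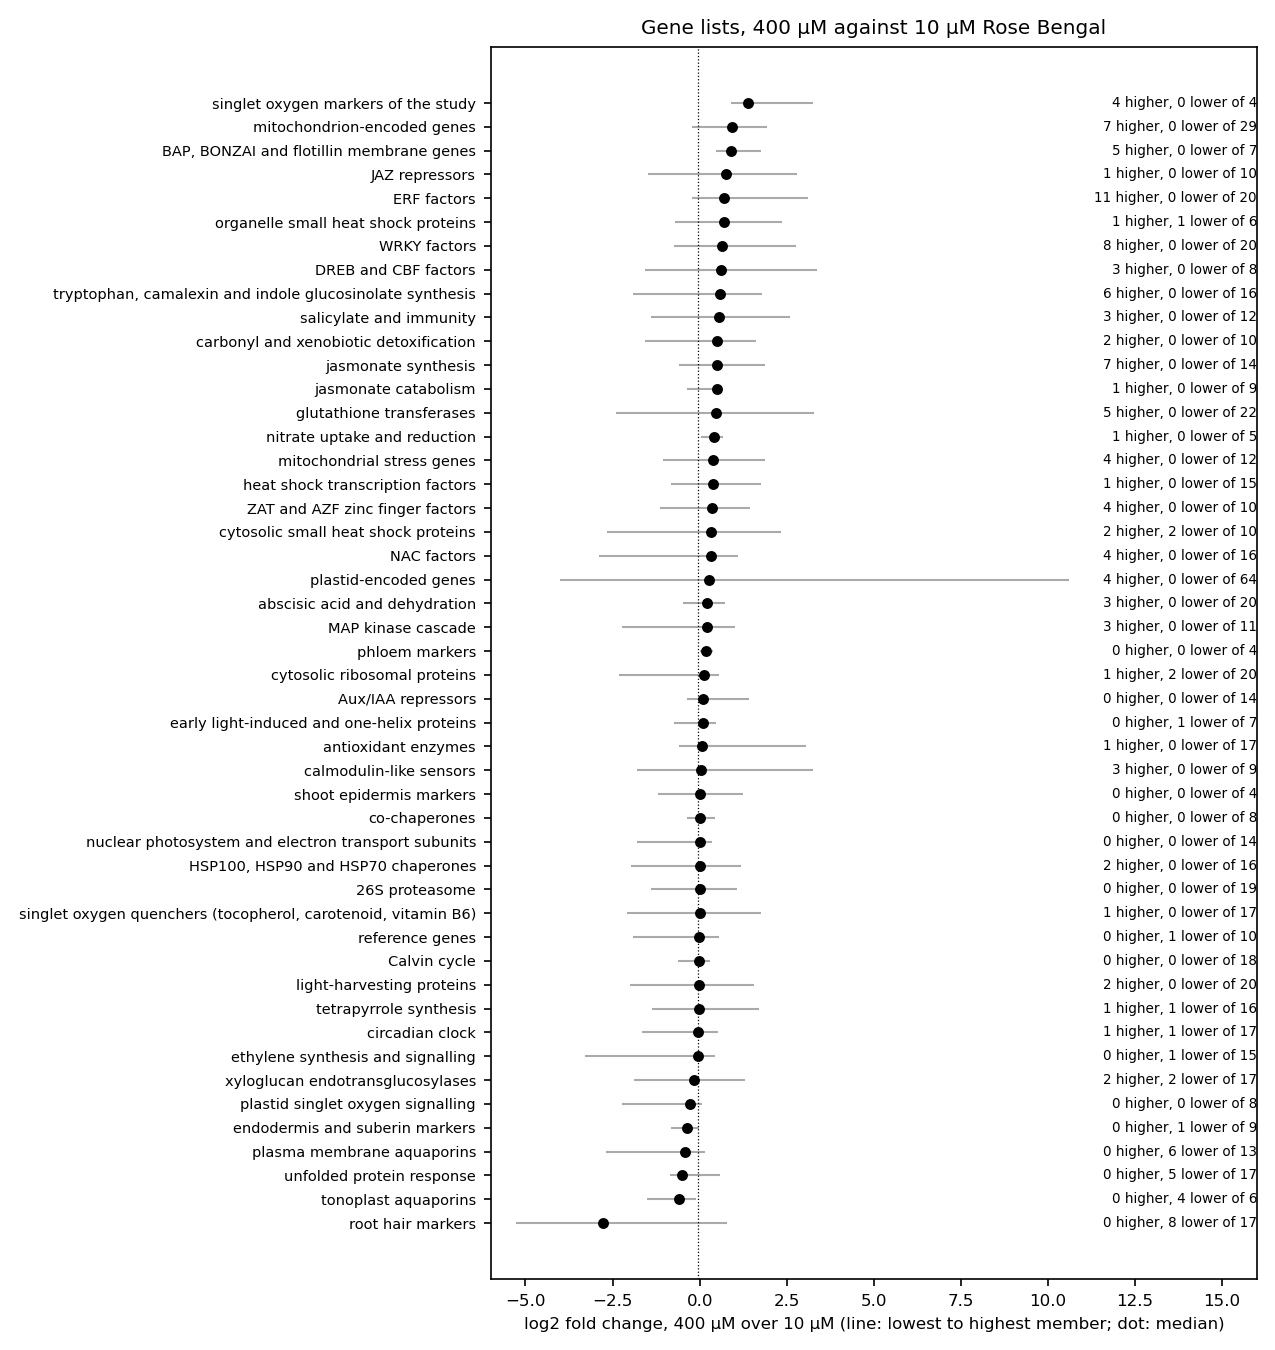
Log2 fold change at 400 µM over 10 µM for the gene lists with at least 4 measured members (x axis). The dot is the median and the line runs from the lowest to the highest member, the dotted vertical line is the median of all genes (-0.04), and the text at the right gives how many members were called higher and lower; the root hair markers stand lowest, with 8 of 17 lower.

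Nuclear photosynthesis genes mostly did not pass the test. None of 18 Calvin cycle genes did in edgeR, with 6 at an unadjusted p under 0.05, and DESeq2 called 2 lower and library totals 5 lower. None of 14 nuclear genes for photosystem and electron transport subunits passed in edgeR or DESeq2, with 2 at an unadjusted p under 0.05. The medians of these lists were -0.01 and 0.02. RBCS1A had 13576, 13998 and 15198 CPM at 10 µM and 15533, 16799 and 13744 CPM at 400 µM, with overlapping groups. Of 20 light-harvesting genes 2 were higher, of which LHCB2.3, an antenna protein of photosystem II, had 28.5, 21.5 and 29.5 CPM at 10 µM and 68.5, 93.8 and 70.3 CPM at 400 µM (log2 fold change 1.56 ± 0.24 (SE), adjusted p = 0.00039), and a gene on the other strand overlaps it. PSAF, a photosystem I subunit, had 554, 56.7 and 65.8 CPM at 10 µM and 71.6, 88 and 37.2 CPM at 400 µM. Its mean at 10 µM rested on library 1 at 10 µM: the adjusted p was 0.096, and 0.021 or 0.036 without library 2 or 3 at 10 µM, which left that library more weight.

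Among 8 genes of singlet oxygen signalling from the plastid none passed in edgeR or DESeq2, with 1 at an unadjusted p under 0.05: GUN1, a plastid protein of retrograde signalling, had means of 135 and 107 CPM (adjusted p = 0.12, and 0.02 with library totals). Of 7 early light-induced and one-helix proteins, AT2G21970, stress enhanced protein 2, was lower, with 130.0, 162 and 145 CPM at 10 µM and 89.9, 91.7 and 80.4 CPM at 400 µM (log2 fold change -0.74 ± 0.15 (SE), adjusted p = 0.0037). Of 16 tetrapyrrole synthesis genes 1 was higher, AT5G26030, ferrochelatase 1 of the heme branch (log2 fold change 0.57, adjusted p = 0.02), and 1 lower, GUN4, a helper of magnesium chelatase (-1.38, adjusted p = 0.039). AT5G26030 lost the call without any library of the 6 but library 1 at 10 µM, and GUN4 without library 1 at 10 µM or any library at 400 µM. None of 19 proteasome genes passed in edgeR or DESeq2, with 1 at an unadjusted p under 0.05, and none of 14 Aux/IAA repressors in edgeR, with 3 at that p and 1 higher in DESeq2. The 6 listed iron uptake genes were not among the genes tested.

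Further lists gave 3 calls or fewer, and such small counts often moved by 1 gene when a single library was left out. Of 20 abscisic acid and dehydration genes 3 were higher, the dehydrins ERD10 and ERD14 and the cold-induced KIN1, with log2 fold changes of 0.59, 0.47 and 0.73. None of them passed with library totals or without library 3 at 400 µM, and 1 did without library 1 at 10 µM, library 3 at 10 µM or library 2 at 400 µM. Of 9 jasmonate catabolism genes, IAR3, an amidohydrolase, was higher (0.65, adjusted p = 0.039), and of 5 nitrate genes, the nitrate reductase NIA2 (0.48, adjusted p = 0.043). Of 17 clock genes, CHE was higher (0.52) and ELF4 lower (-0.49), with adjusted p of 0.034 and 0.049. These 4 genes lay close to the threshold: NIA2 and CHE lost the call without any library of the 6 but library 2 at 10 µM, ELF4 without any but library 3 at 400 µM, and IAR3 without any but library 2 at 10 µM and library 1 at 400 µM. Without library 2 at 10 µM, 4 of the 9 jasmonate catabolism genes were higher, and none with library totals. Of 20 cytosolic ribosomal protein genes 1 was higher and 2 were lower, and of 15 ethylene genes 1 was lower, AT1G62380, which is given with the largest falls.

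Several root hair genes were lower at 400 µM than at 10 µM. Root hairs are outgrowths of the root epidermis, in contact with the solution. Of 17 measured root hair genes, 8 were lower at 400 µM, none was higher and 14 had a negative log2 fold change. The median was -2.78 against -0.04 for all genes, or -1.83 with the genes that had no reads in a group set to their bound. Their summed level was 482, 459 and 498 CPM without dye, 96.9, 149.8 and 105 CPM at 10 µM, 80.8, 95.2 and 96.9 CPM at 100 µM and 48.6, 68.6 and 48.7 CPM at 400 µM. All 3 sums at 400 µM lay below those at 10 µM, and leaving out any 1 library left 7 or 8 genes lower. In whole seedlings, fewer cells of a type and less RNA per cell cannot be told apart.

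AGP3, an arabinogalactan protein of the root hair list, had 19.7, 37 and 14.8 CPM at 10 µM and 4.18, 3.14 and 3.39 CPM at 400 µM, a 6.88-fold fall (log2 fold change -2.78 ± 0.36 (SE), adjusted p = 7.1e-05), and 113, 92.4 and 92.9 CPM without dye. PRP3, a cell wall protein of root hairs, went from 9.86, 15.2 and 11.1 CPM to 0, 2.1 and 2.12 CPM (log2 fold change -3.04 ± 0.42 (SE), adjusted p = 0.00013). The expansins EXPA7 and EXPA18, which loosen the wall where a hair grows out, had 40 and 37 reads over the libraries at 10 µM and 1 read each at 400 µM. The level at 10 µM over that at 400 µM was 29.9 for EXPA7, with a 95% counting interval from 5.07 to 1209.8, and 27.6 for EXPA18, from 4.66 to 1121 (adjusted p = 0.00057 and 0.00039). LRX1, a wall protein of the hair tip, had 16 reads at 10 µM and none at 400 µM, and was at least 3.99-fold lower against the floor of 3 reads (adjusted p = 0.0057, and 0.064 with the 6 libraries alone). RHD6, the factor that sets up hair growth, did not pass the test, with 28 and 12 reads (adjusted p = 0.54), nor did COBL9, with 12 reads and none (adjusted p = 0.1).

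Markers of other cell types mostly did not pass the test. The 9 measured endodermis and suberin genes all had a negative log2 fold change (median -0.36) and summed to 161, 183 and 167 CPM at 10 µM and 132, 125 and 112 CPM at 400 µM, with no overlap, and to 211, 178 and 238 CPM without dye. Of these genes 1 was lower, ESB1, with means of 42.1 and 24.4 CPM (adjusted p = 0.025). It lost its call without library 1 or 2 at 10 µM and without library 2 or 3 at 400 µM, with adjusted p between 0.052 and 0.14. CASP1, which marks the Casparian strip, had 42.6, 56.1 and 38.8 CPM at 10 µM and 41.3, 34 and 35.5 CPM at 400 µM (adjusted p = 0.35). None of the 4 phloem, 3 guard cell and 4 shoot epidermis markers passed in edgeR or DESeq2, with 1, 1 and 2 of them at an unadjusted p under 0.05. The sum of the endodermis and suberin genes was lower at 400 µM, as that of the root hair genes was, and its part in that result was not tested.

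Some aquaporins, the water channels, were lower in both membrane families. Of 13 at the plasma membrane, 6 were lower and none higher (median -0.43), and of 6 at the tonoplast, the vacuolar membrane, 4 were lower and none higher (median -0.59). The count at the plasma membrane was 5 without library 1 at 10 µM and 2 or 3 without any other single library of the 6 or with the 6 libraries alone, and that at the tonoplast was 0 to 2 without any of the 6. PIP1A had 465, 424 and 447 CPM at 10 µM and 230.5, 208 and 195 CPM at 400 µM, a 2.11-fold fall (log2 fold change -1.08 ± 0.14 (SE), adjusted p = 5.5e-05), and PIP2B 348, 398 and 329.7 CPM at 10 µM and 171, 205 and 169.7 CPM at 400 µM (log2 fold change -0.98 ± 0.14 (SE), adjusted p = 0.00019). The doses did not overlap in these 2 genes, and the untreated libraries held 651 to 921 and 447 to 620.5 CPM. PIP3 was called lower, but rests on library 1 at 10 µM, with 123, 12.6 and 7.38 CPM at 10 µM and 10.4, 6.29 and 5.93 CPM at 400 µM and an adjusted p of 0.55 without that library, and it also lost the call without any library at 400 µM (0.079 to 0.13). TIP2;2, a root channel, went from a mean of 91.1 to 55.2 CPM (adjusted p = 0.011, and 0.052 or 0.057 without library 3 or 2 at 400 µM). Of 17 xyloglucan endotransglucosylases, which cut and rejoin wall polymers, 2 were higher and 2 lower: XTH23 rose 1.85-fold (adjusted p = 0.0023) and XTH15 fell 2.89-fold (adjusted p = 0.0043).

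**Figure D5:**
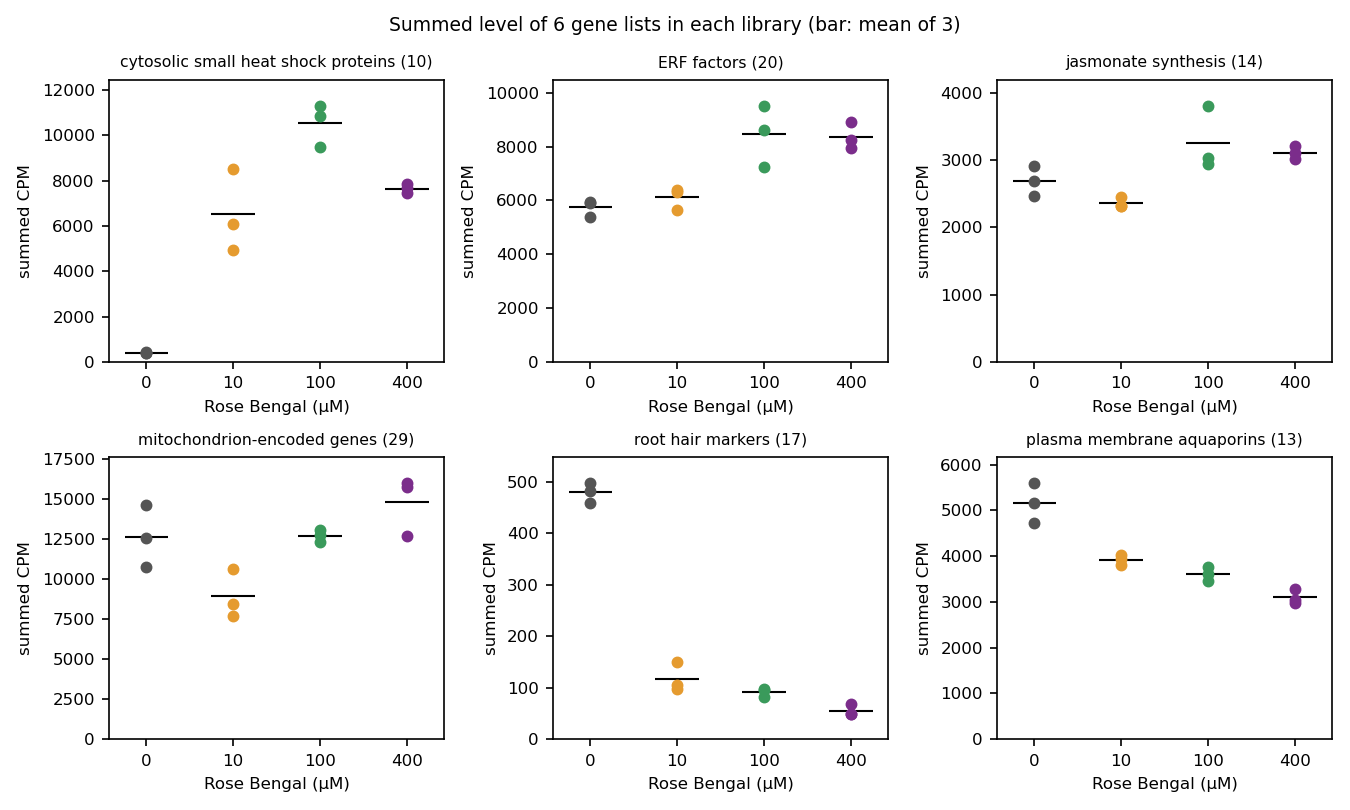
Summed CPM of the measured members of 6 gene lists (number in brackets) in each of the 12 libraries by Rose Bengal dose; points are libraries and bars the means of 3, and each y axis starts at 0. Small heat shock proteins overlap between 10 and 400 µM, ERF, jasmonate synthesis and mitochondrion-encoded genes are higher at 400 µM, and root hair and plasma membrane aquaporin genes are lower.

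The unfolded protein response list holds chaperones of the endoplasmic reticulum and their regulators. Of 17 measured genes 5 were lower, none was higher and 12 had a negative log2 fold change (median -0.50). CNX1, calnexin, had 1011, 785 and 830.5 CPM at 10 µM and 597, 388 and 612 CPM at 400 µM (log2 fold change -0.72 ± 0.16 (SE), adjusted p = 0.0071), and ERDJ3A, a DnaJ protein of this compartment, 35.6, 26.8 and 41.2 CPM at 10 µM and 20.9, 19.9 and 20.3 CPM at 400 µM (log2 fold change -0.74 ± 0.21 (SE), adjusted p = 0.035). ERDJ3A lost its call without any 1 of 5 libraries, all but library 2 at 10 µM, with adjusted p between 0.094 and 0.12. The same gene also lost it in DESeq2 (0.062) and without the 3 libraries that stood apart (0.14). The count of lower genes was 3 without library 1 at 10 µM, library 3 at 10 µM or library 1 at 400 µM, 8 without library 2 at 10 µM, 1 without library 2 at 400 µM, 2 without library 3 at 400 µM and 9 with library totals. It was 0 without the 3 libraries that stood apart, where CNX1 had adjusted p = 0.096. The levels of CNX1 at 10 µM were near its 730.3 to 833 CPM without dye, and those of ERDJ3A were above its 5.25 to 5.64 CPM.

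The 15 largest falls were chosen by the same rule as the rises. In 11 of them library 1 at 10 µM was more than 2 times as high as both other libraries at 10 µM, and 7 of the 15 lost their call without it. The clearest case is AT1G62380, ACC oxidase 2 of ethylene synthesis, with 450.1, 19.9 and 20.3 CPM at 10 µM and 19.9, 15.7 and 14.8 CPM at 400 µM: its log2 fold change of -3.30 became -0.28 without that library (adjusted p = 0.67). SDH5, a subunit of succinate dehydrogenase, COPT5, a copper transporter, ARA-2, a small GTPase, AT3G03990, the strigolactone receptor D14, and the ribosomal protein genes AT5G02960 and RPS28 also lost their calls without it, with adjusted p between 0.098 and 0.27. All 7 also lost them without library 1 or 3 at 400 µM. Without the 3 libraries that stood apart, AT5G02960, RPS28, ARA-2 and AT3G03990 were again called lower, with adjusted p between 8.7e-05 and 0.011. RNS1, a secreted ribonuclease known from phosphate starvation and wounding, kept its call: it had 66.6, 24.9 and 24 CPM at 10 µM and 2.09, 4.71 and 5.93 CPM at 400 µM (log2 fold change -3.15 ± 0.45 (SE), adjusted p = 0.00017), with a log2 fold change of -2.50 without library 1 at 10 µM (adjusted p = 0.00021). AT2G37600, a ribosomal protein gene, and DGR2, a cell wall protein gene, also kept theirs, with adjusted p of 0.03 and 0.039 without that library, but DGR2 lost its call without library 3 at 400 µM (0.056).

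The falls that were at least as large without library 1 at 10 µM were AGP3, AT5G57625, AT5G17820 and AT3G54580. AT5G57625, a CAP-domain protein of the PR1 type, had 17.6, 32.5 and 23.4 CPM at 10 µM and 6.79, 1.57 and 2.54 CPM at 400 µM (log2 fold change -2.78 ± 0.38 (SE), adjusted p = 0.00012), AT5G17820, a secreted peroxidase, 33.8, 76.3 and 58.4 CPM at 10 µM and 8.36, 11 and 10.6 CPM at 400 µM (log2 fold change -2.49 ± 0.26 (SE), adjusted p = 1.1e-05), and AT3G54580, an extensin-like wall protein, 20.8, 24.1 and 20.9 CPM at 10 µM and 3.14, 5.76 and 3.81 CPM at 400 µM (log2 fold change -2.38 ± 0.26 (SE), adjusted p = 1.5e-05). In these 3 genes the 3 libraries at 400 µM all lay below the 3 at 10 µM, which in turn lay below the untreated ones, at 86.1 to 128, 140.2 to 153 and 116 to 137 CPM. Extensin genes are near-identical in parts and can share reads.

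Among 10 measured genes often used as references, ACT8 was called lower, with 197, 88.9 and 92.3 CPM at 10 µM and 26.1, 54.5 and 24.1 CPM at 400 µM (adjusted p = 0.017), and ACT2 was near the threshold (log2 fold change -1.91 ± 0.59, adjusted p = 0.055). Both had the highest value of each dose in the library that stood apart. ACT8 lost its call without library 1 at 10 µM (adjusted p = 0.079) or library 1 or 3 at 400 µM (0.11 for each), while ACT2 passed without library 2 at 400 µM (0.016), with library totals (0.045), with the 6 libraries alone (0.023) and without the 3 libraries that stood apart (6.7e-06). The elongation factor gene AT5G60390 had means of 2783 and 3339 CPM (adjusted p = 0.27).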

How the data were processed

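Whole seedlings in 12 wells were read by MARS-seq. According to the deposited descriptions and the methods of the study, the authors trimmed reads with cutadapt 1.8.3 after demultiplexing with bcl2fastq 2.17.1.14, mapped them with STAR to the Araport11 reference of Arabidopsis and counted 3′ ends per gene with HTSeq. The authors deposited 1 table of 13307 genes with raw read counts, used here, and with counts divided by DESeq2 size factors (a normalized signal), which were not used, nor were regularized log2 values that the authors made with DESeq2. Its columns of fold changes and p-values, which hold the authors' comparisons, were not used either. The values are whole-number counts of reads, not collapsed by molecular identifiers according to the name of the deposited table, so PCR copies may count more than once, and the deposited genes already had at least 5 reads in a library.

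Counts of all 12 libraries were fitted with edgeR 4.0.16 (R 4.3.3; quasi-likelihood, TMM factors, dose as a factor), and the contrast of 400 minus 10 µM was tested two-sided with Benjamini-Hochberg adjustment over all 13307 genes. DESeq2 1.42.0 was an alternative, beside other scalings, filters, a replicate block and fits without single libraries. Standard errors are those of the log2 fold change. On simulated counts the test was checked before use. Gene names, promoters and positions come from RefSeq (TAIR10.1), which matched 13214 IDs. Annotated genes on the opposite strand overlap several of the named ones, among them PP2-B13, RRTF1 and ESB1, and their reads may not be told apart. A gene without reads in a group was given a floor of 3 reads over the group, and intervals cover counting error only.

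The genes compared and the 51 gene lists were chosen with earlier results of these data known, so counts over lists are descriptions. Genes were named by rule: the 15 largest rises and falls over called genes that averaged 10 CPM or more without overlap of the doses, the study's 8 marker genes, up to 4 genes per list by p, and promoters of named heat shock genes with the element. Cell type markers and neighbours are named beside them. ERDJ3A and AOX1A were named outside this rule, as were the genes marked as named after their values were seen.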

Additional observations from a re-analysis of the deposited data

How the results depend on the processing

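With 621 genes higher and 401 lower in the fit reported, size factors of the relative log expression type gave 597 and 411, a stricter low-count filter 661 and 416, DESeq2 597 and 380, the 6 libraries alone 605 and 415, and the 3 libraries set apart left out 600 and 386. Library totals moved the share of higher genes most, from 60.8% to 37.1% (433 higher and 733 lower), with 194 and 423 past 2-fold against 297 and 263. Leaving out single libraries gave 418 to 605 higher, 180 to 421 lower, 242 to 304 higher past 2-fold and 129 to 316 lower past 2-fold; the lowest counts of lower genes were 180 without library 3 at 400 µM and 184 without library 1 at 400 µM. The cause of these shifts was not tested. The replicate block gave 571 higher and 349 lower, and 895 of the 1022 genes were called again. Same-numbered libraries of the 2 doses did not deviate together (correlations of -0.22, -0.18 and -0.01 over 6904 genes), so the numbers were not read as pairs.

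Of the named genes that changed sign none passed the test in the fit reported, but PSAF, at -1.80 there, passed without library 2 or 3 at 10 µM. Without single libraries FER1 ranged from -0.13 to 0.01, PSAF from -2.26 to 0.08, AT1G74300 from -0.74 to 0.24 and AOX1A from -0.31 to 0.19. FER1 came to 0.01 without library 1 at 10 µM or library 1 at 400 µM, PSAF to 0.08 without library 1 at 10 µM and RBCS1A to -0.06 with library totals. AT1G74300 came to 0.24 without library 2 at 10 µM and 0.08 without library 1 at 400 µM. AOX1A came to 0.19, 0.11 and 0.10 without library 3 at 10 µM, library 1 at 400 µM and library 2 at 400 µM, and to 0.07 without the 3 libraries set apart. With 1499791 to 3608636 reads a library, a gene at a few reads per library had to change several-fold to pass.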

Other observations

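These gene groups were chosen after their values had been seen, so their counts are a description with no test of the group. Over all genes, 4.67% were higher and 3.01% lower, with a median log2 fold change of -0.04. Of the 53 measured genes that RefSeq describes as peroxidases of the secreted plant family, 13 were lower at 400 µM than at 10 µM and 2 were higher, with a median log2 fold change of -0.53, and 11 of these 15 kept their calls under every other setting. AT5G64100 fell from 338, 564 and 529 CPM to 145, 107 and 129 CPM and AT1G30870 from a mean of 13 to 1.22 CPM (log2 fold change -3.49 ± 0.51, adjusted p = 0.00021). DOX1, which the same description covers although it is known as an alpha-dioxygenase of fatty acids, went from a mean of 166 to 64.8 CPM (log2 fold change -1.35 ± 0.14, adjusted p = 9.9e-06). The 2 higher ones are the neighbours AT1G14550, given above, and PER4, which went from 11.3, 9.18 and 15.4 CPM to 38.7, 50.3 and 48.7 CPM. Peroxidases use hydrogen peroxide in wall building and defence.

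Genes for aliphatic glucosinolates, the defence compounds that are made from methionine, were lower in 5 of 17 cases and higher in none. IPMI2 and IPMI1, small subunits of the isomerase that lengthens the methionine chain, went from a mean of 36.9 to 11.9 CPM (log2 fold change -1.60 ± 0.24, adjusted p = 0.00033) and of 37 to 16.6 CPM (log2 fold change -1.15 ± 0.24, adjusted p = 0.0046), and CYP83A1, an enzyme of the core pathway, from 111, 115 and 108 CPM to 64.8, 53.4 and 58 CPM. In the list with the indole branch, no gene was lower and 6 were higher, and the difference between the branches was not tested. In the plastid isoprenoid pathway, 6 of 7 listed genes were measured and 2 were lower. These were its first enzyme CLA1, from a mean of 106 to 52.7 CPM (adjusted p = 0.00092), and its last, HDR, from a mean of 156 to 97.5 CPM (log2 fold change -0.68 ± 0.13, adjusted p = 0.0035). The 4 measured genes between them did not pass the test, and ISPF, 1 of these, had only 9 reads at 10 µM and 7 at 400 µM.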
